A study of Mus musculus with 12 samples.

Results

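The transcriptome of vehicle-treated Lewis lung tumours was described from 3 libraries, vehicle 2, vehicle 3 and vehicle 5, out of 12 in the series. They are all the libraries labelled vehicle, and no measured value entered their choice. The tumours were allografts of the LLC line, from cells injected with Matrigel (3000000 per flank) into both flanks of C57BL/6 female mice aged 6 to 8 weeks. A group had 6 mice and 10 to 12 tumours. Injections into the peritoneum, 100 µL each, started when the tumour volume was at least 100 mm3 and were given 2 times per week for 4 weeks. The other 3 groups had the same line and hosts and received cisplatin (a DNA cross-linking drug), brivanib (a blocker of the kinases of VEGF and FGF receptors) or both, and only their spread between libraries is used here. What the vehicle contained is not given in the sources used here. No label says whether the 3 tumours came from separate animals, so the spread between libraries may hold less than the spread between mice.

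Lewis lung carcinoma arose in the lung of a C57BL/6 mouse and has been passaged as a transplantable line ever since. It grows as an undifferentiated tumour, and is widely used in hosts with an intact immune system. A bulk library of such a tumour holds RNA of the line together with RNA of the host's vessels, fibroblasts, blood and immune cells. Fewer cells of a type and less RNA per cell cannot be told apart in these data.

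Levels are in FPKM, the fragments of a transcript per kilobase of its length and per fixed total of fragments in the library, and a gene's level is the sum over its transcripts. FPKM values are per length, so levels of different genes can be set side by side. This is less certain for very short features and for genes whose reads also fit other transcripts. A gene is called detected at a mean of 1 FPKM or more. Values are given in the order vehicle 2, vehicle 3 and vehicle 5, or as mean ± SD with n = 3.  Fragment counts recovered from the FPKM values gave depths of 21821615, 20290068 and 18136040 fragments. Between 0.465% and 0.643% of fragments lay in ribosomal RNA-like features. No pair of the 3 libraries agreed within sampling noise, so none was counted as a duplicate. The chi-square per degree of freedom over genes was 25.8 to 27.6, and Pearson's r of log2(FPKM + 1) across 14002 genes, which are not independent replicates, was 0.975 to 0.979.

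The labels give the sex as female, and the sex-linked genes did not match a purely female sample. Xist, the RNA that coats the inactive X chromosome of female cells, had 3, 5 and 0 fragments. Its highest level over all 12 libraries was 0.092 FPKM. The Y-linked helicase gene Ddx3y had 206, 201 and 170 fragments, and the Y-linked translation factor gene Eif2s3y had 95, 121 and 79. Uty had 58, 43 and 48 fragments and Kdm5d had 73, 62 and 60, and Tsix, the antisense RNA of Xist, had none. Of these 6 genes Ddx3y and Eif2s3y were detected. A female host carries no Y chromosome and its cells make Xist, so the sex label of the hosts is itself uncertain. Whether the Y-linked RNA came from the line, the host or both was not tested.

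Of 53801 genes in the deposited annotation, 14002 were detected (26.0%), and 11294 of those were protein-coding. Another 12006 genes were above 0 but below 1 FPKM, and 27793 had no fragment in any of the 3 libraries. Of the detected genes, 6199 lay between 1 and 10 FPKM, 7155 between 10 and 100, 605 between 100 and 1000, and 43 at 1000 or more. The 10 highest genes held 8.29% ± 0.335 of all FPKM, the 100 highest 27.3% ± 0.241, and the 1000 highest 56.9% ± 0.483. Counted as fragments, where long genes weigh more, the 100 highest held 15.8% ± 0.111.

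The highest levels belonged to the respiratory chain genes of the mitochondrial genome and to the machinery of translation. mt-Co1, subunit 1 of cytochrome c oxidase, led with 10117, 9629 and 9825 FPKM. Eef1a1, which brings aminoacyl-tRNA to the ribosome, followed with 4327, 4983 and 4796 FPKM. The ATP synthase subunit gene mt-Atp8 had 4489 ± 326 FPKM, and the oxidase subunit genes mt-Co2 and mt-Co3 had 3093 ± 181 and 2981 ± 339 FPKM. mt-Cytb, of the cytochrome bc1 complex, had 2222 ± 200.3 FPKM. The 3 libraries lay close together at all of these genes. The 13 mitochondrial protein-coding genes together made up 5.95% ± 0.39 of all FPKM, and chromosome 1 copies of mitochondrial genes held another 2.94% ± 0.262. As described below, mt-Co2 and mt-Co3 each shared their fragments nearly evenly with an identical copy. Their order against Eef1a1 is therefore uncertain.

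Ribosomal proteins were the largest functional group near the top. Of 84 cytosolic ribosomal protein genes 81 were detected, 46 of them stood among the 100 highest genes, and together they held 12.2% ± 0.304 of all FPKM. Of the 20 highest protein-coding genes, Rpl13 (2297 ± 152 FPKM), Rplp1 (1718 ± 89.4), Rplp0 (1577 ± 59), Rpl4 (1561 ± 112), Rpl23a (1553 ± 76.5) and Rpl8 (1500 ± 116) were ribosomal proteins. Rps4x (1433 ± 145 FPKM), Rpl19 (1388 ± 105), Rpl32 (1296 ± 91.7) and Rps15 (1265 ± 111) completed the ribosomal genes among the 20. The remaining 4 were Lgals1, Fth1, Tpt1 and Hsp90ab1. Lgals1 encodes galectin-1, a secreted lectin, and had 2524, 2369 and 2548 FPKM. Fth1, the ferritin heavy chain that stores iron, had 1699, 2374 and 2298 FPKM and was lowest in vehicle 2. Tpt1, the translationally controlled tumour protein, had 1901 ± 110.0 FPKM. Hsp90ab1, a constitutive HSP90 chaperone, had 1203, 1229 and 1500 FPKM.

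**Figure D1:**
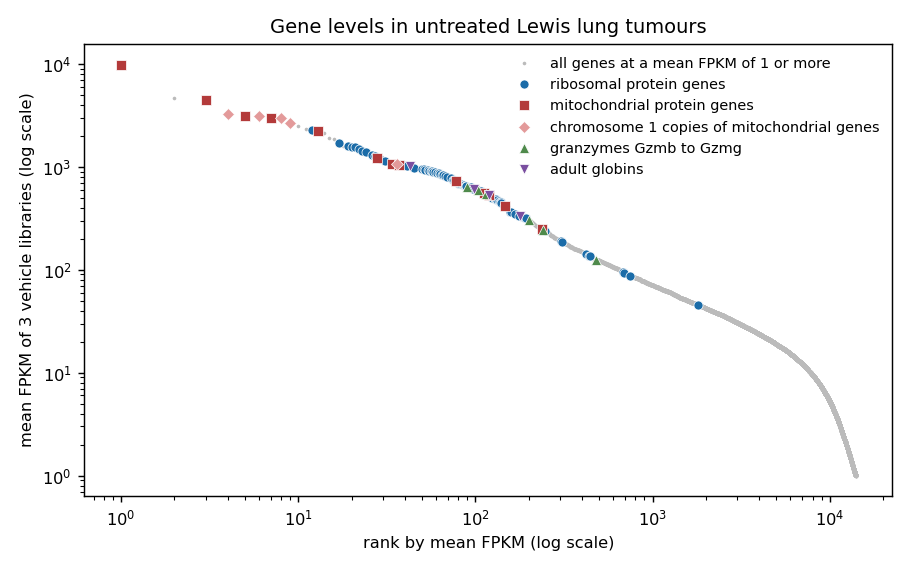
Mean FPKM of the 3 vehicle libraries (y, log scale) against rank by mean FPKM (x, log scale) for the 14002 detected genes. Mitochondrial protein genes and their chromosome 1 copies fill most of the first 10 ranks, ribosomal protein genes crowd the first 100, and Gzmg (rank 90) and the globin gene Hbb-bs (rank 43) stand among them.

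Among the 8 highest features of other biotypes, 4 were copies of mitochondrial genes on chromosome 1, annotated as unprocessed pseudogenes. Gm10925 had 3256 ± 161 FPKM, Gm28661 had 3087 ± 186, Gm28437 had 2978 ± 335 and Gm29216 had 2688 ± 251. Their transcripts were aligned with the mitochondrial transcripts of GENCODE M21 (GRCm38). Gm28661 was identical to mt-Co2 over 681 of 681 bases, Gm28437 to mt-Co3 over 783 of 783, and Gm10925 to mt-Atp6 over 678 of 678. Gm10222 was identical to mt-Nd4l over 294 of 294 bases. The genes mt-Atp6 and mt-Nd4l and the copy Gm10222 were added after their values were seen. Gm29216 matched mt-Co1 at 486 of 492 bases. The first 60 bases of each copy are shown with the same stretch of its source gene, because they show what a read has to tell the pair apart. They lie at MT:6381-6440 (+) for mt-Co1, chr1:24616138-24616197 (-) for Gm29216, MT:7013-7072 (+) for mt-Co2 and chr1:24615506-24615565 (-) for Gm28661. Capitals mark the bases that differ within a pair, of which the mt-Co2 pair has none:
mt-Co1: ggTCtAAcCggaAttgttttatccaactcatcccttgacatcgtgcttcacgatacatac
Gm29216: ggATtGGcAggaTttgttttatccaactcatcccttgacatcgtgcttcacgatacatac
mt-Co2: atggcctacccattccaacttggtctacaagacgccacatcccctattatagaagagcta
Gm28661: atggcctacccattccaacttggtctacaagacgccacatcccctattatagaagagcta

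Fragments were divided nearly evenly in 3 of the 4 identical pairs. Gm28661 held 49.8% ± 0.0406 of the fragments of its pair, Gm28437 49.9% ± 0.0331 and Gm10222 49.9% ± 0.0291. In the other identical pair Gm10925 held 85.9% ± 0.448 against mt-Atp6, a gene that overlaps mt-Atp8 on the mitochondrial genome. Gm29216, which covers only part of mt-Co1 and differs from it at 6 bases, held 7.99% ± 0.614. RSEM, the authors' tool, divides reads that fit several transcripts by a model, so the levels of both members of an identical pair are uncertain and only their sum is well set.

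The other 4 features at the top outside protein-coding genes were of different kinds. Gm27597 and Gm26377, with 2313 ± 180.2 and 1849 ± 203 FPKM, are annotated as miRNA genes. AY036118, a lincRNA counted here among ribosomal RNA-like features, had 1265, 1580.0 and 1916 FPKM. Gm9794, a processed pseudogene, had 1082 ± 58.3 FPKM. Gm27597, of 80 bases, lies inside Rpl19 and Gm26377, of 108 bases, inside Eef1a1. Of 2207 annotated miRNA features 145 were detected, and 129 of these 145 overlapped a protein-coding gene. miRNA features held 1.67% ± 0.0446 of FPKM but 0.0863% ± 0.00278 of fragments, and the median length of the detected ones was 83 bases. Their FPKM values therefore say little about mature miRNAs, which were not measured as such. Protein-coding genes held 86.2% ± 0.0516 of FPKM, processed pseudogenes 5.17% ± 0.176, unprocessed pseudogenes 3.01% ± 0.266 and lincRNAs 1.06% ± 0.0901.

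Granzymes stood high among the protein-coding genes, a group chosen for description after its values were seen. Granzymes are serine proteases of cytotoxic granules, and perforin, encoded by Prf1, forms the pores through which they enter a target cell. Gzmg had 759, 540 and 624 FPKM (rank 90 of all genes), Gzmf 681, 479 and 610.1 (rank 104) and Gzmd 644, 472 and 520.3 (rank 115). Gzmc had 349, 207 and 359 FPKM and Gzme 306, 204 and 224. All of these 5 were lowest in vehicle 3. Gzmb, the granzyme common to cytotoxic T and NK cells, had 143, 107 and 127 FPKM, and Prf1 had 96.8, 72.2 and 78.0. Gzma had 10.9, 11.1 and 17.4 FPKM, Gzmn 0.65 ± 0.357, Gzmk 1.02, 0.104 and 0, and Gzmm 0.231 ± 0.122. The 10 granzyme genes held 0.515% ± 0.09 of all FPKM. Which cells of the tumour made this RNA was not tested.

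Gzmc to Gzmg are neighbouring paralogues on chromosome 14, and their promoters are shown because all 5 genes stood between ranks 90 and 242. Gzmn, at 0.65 ± 0.357 FPKM, lies between Gzmg and Gzmf. The promoters of Gzmn and Gzmb were not aligned with these, so no link between promoter sequence and level was tested. The RefSeq promoter windows (GRCm38.p6, 250 bases before to 50 after the gene start) were found for all 5. Over the 10 pairs they were 63.6% to 88.9% identical, with Gzmc the most different. The stretch of 80 bases around their longest shared run lies on the minus strand at chr14:56234663-56234742 (Gzmc), chr14:56132603-56132682 (Gzmd), chr14:56120636-56120715 (Gzme), chr14:56211438-56211517 (Gzmf) and chr14:56159605-56159684 (Gzmg). Capitals mark that shared run of 20 bases:
Gzmc: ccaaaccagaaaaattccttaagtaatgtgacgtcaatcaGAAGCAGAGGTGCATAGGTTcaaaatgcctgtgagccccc
Gzmd: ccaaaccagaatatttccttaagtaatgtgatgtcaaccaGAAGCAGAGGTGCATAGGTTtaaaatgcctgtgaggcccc
Gzme: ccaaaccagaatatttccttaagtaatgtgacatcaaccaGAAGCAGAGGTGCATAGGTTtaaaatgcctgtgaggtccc
Gzmf: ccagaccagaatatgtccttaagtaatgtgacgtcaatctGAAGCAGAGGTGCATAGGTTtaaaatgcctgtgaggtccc
Gzmg: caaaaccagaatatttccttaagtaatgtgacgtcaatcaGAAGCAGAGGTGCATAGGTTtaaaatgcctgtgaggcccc

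The run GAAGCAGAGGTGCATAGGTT, searched on both strands, occurred in these 5 promoters and in no other of 32851 in the table (0.0152%). The palindrome TGACGTCA, known as a cAMP response element, was in the windows of Gzmc, Gzmf and Gzmg and in 1.79% of all promoters. The run was picked as the longest that these 5 promoters share, so its presence in all of them was fixed in advance. Its absence from the other promoters says little either, since a run this long is unlikely to recur by chance. The 5 windows belong to paralogues of related sequence, so the matches to TGACGTCA in Gzmc, Gzmf and Gzmg are not independent. They cannot be weighed against the 1.79% of all promoters. These matches describe the letters only. The transcripts of these paralogues were not aligned with each other, so how far their reads could be told apart is not known. The single levels of Gzmc to Gzmg may be less certain than their sum.

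Of 351 genes found from 31 lists of cell type and pathway genes, 229 were detected. Over the whole annotation, 26.0% of all genes and 11294 of 22058 protein-coding genes were detected. Among the lists that describe the tumour cell, mesenchymal and cell cycle genes were high and epithelial and lung genes near 0. Of 12 epithelial genes 1 was detected, Cdh1, the epithelial cadherin, with 2.64, 2.03 and 1.81 FPKM. Epcam, an epithelial adhesion molecule, had 0.999, 0.707 and 0.791 FPKM, Krt8 had 0, 0 and 2 fragments, and the keratin gene Krt18 had none. Cldn3, Cldn7 and Esrp1 were also without a fragment. A count of 0 allows up to 3 fragments per library as a one-sided 95% limit.

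All 12 mesenchymal genes were detected, with a median of 43.6 FPKM. Lgals1 was the highest and Snai1, a repressor of epithelial genes, the lowest at 6.63 ± 1.31 FPKM. Vim, the intermediate filament vimentin, had 902, 1018 and 975 FPKM. Fibroblasts of the host also express most of these genes. Of 16 genes of the lung lineage 2 were detected. Hopx, a homeodomain cofactor found in alveolar type I cells among others, had 6.59, 7.54 and 6.44 FPKM, and the aspartic peptidase gene Napsa had 4.02, 2.31 and 2.81. Nkx2-1, the lung-determining transcription factor, was without a fragment in all 3 libraries. So were the surfactant genes Sftpa1, Sftpb, Sftpc and Sftpd, the club cell genes Scgb1a1 and Scgb3a2, and Foxa2.

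Of 16 RAS-MAPK and growth genes 13 were detected. Myc, a driver of growth transcription, had 99.2, 105 and 117 FPKM. Spry2, a feedback inhibitor of receptor signalling, was the highest of the list at 116 ± 13.4 FPKM. Egfr, the epidermal growth factor receptor, was the lowest with 0.0499, 0.0221 and 0.179 FPKM. Of 11 tumour suppressor genes 9 were detected, Trp53 being the highest at 45.5, 48.7 and 49.0 FPKM. Cdkn2a, which encodes the p16 and ARF inhibitors, was the lowest with 8, 7 and 3 fragments, and Cdkn2b, its neighbour, had 0.122, 0.259 and 0.748 FPKM.

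All 22 proliferation genes were detected, with a median of 53.9 FPKM. Pcna, the sliding clamp of DNA replication, was the highest at 236, 219 and 239 FPKM and Tyms, thymidylate synthase, the lowest at 16.2, 13.5 and 17.7. Mki67, the Ki-67 antigen, had 28.2, 31.9 and 36.3 FPKM. Of 14 oncofetal and imprinted genes 8 were detected. Hmga1, a chromatin architectural protein abundant in embryonic and cancer cells, had 276, 308 and 372 FPKM, and its relative Hmga2 had 150.0, 136 and 181. The fetal growth factor Igf2 had 1, 0 and 4 fragments and the imprinted RNA H19 had 2, 0 and 5.

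All 20 glycolysis and hypoxia genes were detected, with a median of 49.7 FPKM. Pkm, pyruvate kinase, was the highest with 540.2, 675 and 692 FPKM, and Ldha, lactate dehydrogenase A, had 548, 534 and 715. Car9, a carbonic anhydrase induced by hypoxia, was the lowest at 1.38, 1.61 and 1.37 FPKM. Gapdh, usually among the most abundant glycolytic transcripts, stood at only 14.8, 15.9 and 17.2 FPKM. Its processed copy Gapdh-ps15, looked up after the value of Gapdh was seen, had 88.0, 95.5 and 104 FPKM, and Gapdh with 3 copies summed to 119 ± 9.66. The list value of Gapdh is therefore uncertain.

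All 9 MHC class I genes were detected. B2m, the light chain of the class I complex, had 896, 841 and 757 FPKM, and the heavy chain genes H2-D1 and H2-K1 had 485, 428 and 381 and 285, 229 and 208. Psmb8, an immunoproteasome subunit, was the lowest of the list at 4.69 ± 1.06 FPKM.

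**Figure D2:**
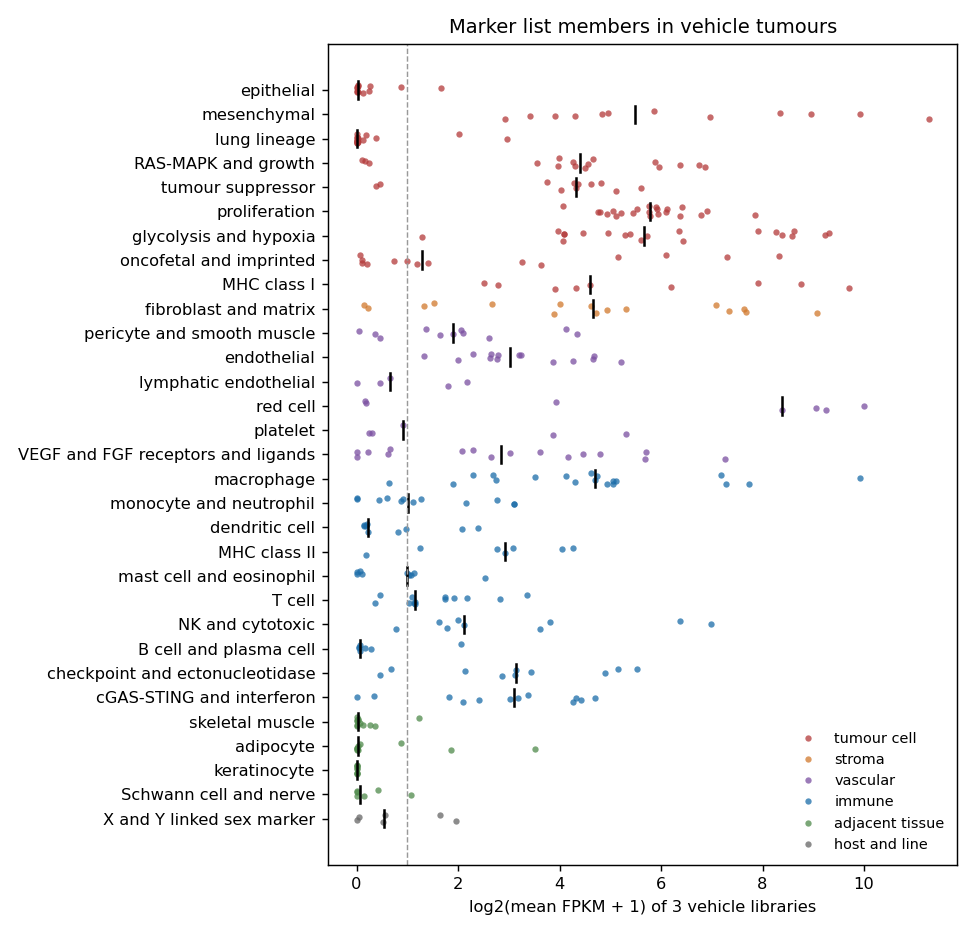
Level of each listed gene as log2 of the mean FPKM plus 1 over the 3 vehicle libraries (x), by list (rows), coloured by compartment. The black tick is the list's median and the dashed line marks a mean of 1 FPKM. Proliferation, glycolysis, mesenchymal and macrophage genes lie far to the right of the line, whereas epithelial, lung, muscle and keratinocyte genes lie mostly at its left.

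Some matrix genes were high, whereas the usual fibrillar pair was low. These levels cannot be assigned to host fibroblasts or to the line in a bulk library. Of 16 fibroblast and matrix genes 14 were detected, with a median of 24.4 FPKM. Col3a1, type III collagen, was the highest at 727, 431 and 451 FPKM. The type I collagen genes Col1a1 and Col1a2 had only 8.58, 2.63 and 30.1 FPKM and 11.0, 3.05 and 31.6 FPKM. The proteoglycan genes Lum and Dcn had 245, 137 and 212 FPKM and 138, 128 and 139 FPKM. Fap, a protease of activated fibroblasts, had 1.91, 1.29 and 2.48 FPKM, and Fbln1, fibulin-1, was the lowest at 0.11 ± 0.132.

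All 14 endothelial genes were detected, with a median of 7.09 FPKM. Eng, the TGF-beta coreceptor endoglin, was the highest at 39.5, 34.8 and 34.0 FPKM and Tek, the angiopoietin receptor, the lowest at 1.52, 1.80 and 1.27. Pecam1, the defining adhesion molecule of endothelium, had 22.4, 25.6 and 25.1 FPKM, and the libraries lay within a narrow range of each other. Of 11 pericyte and smooth muscle genes 8 were detected, led by Mcam at 19.3 ± 3.63 FPKM, and Cnn1, calponin, was the lowest at 0.0357 ± 0.0618. Of 5 lymphatic genes 2 were detected, Pdpn being the highest at 3.55 ± 0.975 FPKM and Prox1, the lymphatic master regulator, the lowest at 0.00716 ± 0.0124.

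The receptors that brivanib inhibits in another arm of the study were unequal in level. Fgfr1, an FGF receptor, was the highest of the VEGF and FGF list with 165, 148 and 145 FPKM. Kdr, the main VEGF receptor of endothelium, had 3.74, 3.79 and 4.23 FPKM, and Flt1, the other VEGF-A receptor, had 4.28, 4.82 and 6.68. Fgfr3 and Fgfr4 had no fragment. In all 11 of the 16 genes of this list were detected, and the ligand gene Vegfa had 20.5, 18.4 and 24.4 FPKM.

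Globin RNA was abundant and 5 of 7 red cell genes found were detected. Hbb-bs, an adult beta globin, was the highest at 655, 1245 and 1173 FPKM, and Slc4a1, the red cell anion exchanger, the lowest at 0.128 ± 0.061. The red cell genes summed to 1607, 2853 and 3086 FPKM, lowest in vehicle 2. The paired globin genes are near-identical, so their division is uncertain. Of 5 platelet genes 2 were detected, Pf4, platelet factor 4, with 32.9, 49.4 and 34.1 FPKM. Gp1ba, the platelet receptor of von Willebrand factor, was the lowest at 0.188 ± 0.107.

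Among the lists of immune genes, the macrophage list had the highest median. Of 19 macrophage genes 18 were detected, with a median of 24.8 FPKM. Spp1, osteopontin, was the highest at 1051, 866 and 998 FPKM, a secreted protein that tumour cells and fibroblasts can make as well. Lyz2, myeloid lysozyme, had 136, 206 and 123 FPKM and C1qa, a complement component of tissue macrophages, 31.2, 45.5 and 19.7. Adgre1, the F4/80 antigen, had 5.34, 7.66 and 3.37 FPKM, and Cd163, a scavenger receptor, was the lowest of the list at 0.23, 0.467 and 0.96.

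Other myeloid and antigen-presenting genes were low. Of 12 monocyte and neutrophil genes 6 were detected, led by S100a9 with 3.15, 7.74 and 12.0 FPKM, while the granule genes Ngp and Camp had no fragment. Of 9 dendritic cell genes 2 were detected, Zbtb46 at 4.27 ± 0.999 FPKM being the highest and Xcr1, the chemokine receptor of cross-presenting dendritic cells, the lowest at 0.104 ± 0.038. Of 7 MHC class II genes 6 were detected, from H2-DMb1 at 18.3 ± 1.06 FPKM down to the transactivator gene Ciita at 0.136 ± 0.0412. Of 9 mast cell and eosinophil genes 4 were detected, Kit being the highest at 4.81 ± 1.26 FPKM, and the eosinophil genes Siglecf and Epx had no fragment.

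Lymphocyte genes were low by comparison with the granzymes. Of 13 T cell genes 11 were detected, with a median of 1.23 FPKM. Cd247, the zeta chain that T cells share with NK cells, was the highest at 4.32, 11.0 and 12.6 FPKM, and Cd4 the lowest at 0.369, 0.261 and 0.218. Of 9 NK and cytotoxic genes 8 were detected. The NK receptor gene Ncr1 had 3.27, 1.16 and 2.95 FPKM and Ifng, interferon gamma, was the lowest of that list at 1.05, 0.343 and 0.723. Of 7 B cell and plasma cell genes 1 was detected, the immunoglobulin heavy chain gene Ighm at 3.18 ± 0.478 FPKM, and Cd79b, part of the B cell receptor, was the lowest at 0.0364 ± 0.063.

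Of 10 checkpoint and ectonucleotidase genes 8 were detected. Lgals9, galectin-9, was the highest at 50.8, 39.1 and 45.8 FPKM and Pdcd1lg2, the ligand PD-L2, the lowest at 0.542, 0.219 and 0.38. Cd274, the ligand PD-L1, had 2.86, 4.30 and 3.0 FPKM. Of 12 cGAS-STING and interferon genes 10 were detected. Tbk1, the kinase downstream of STING, was the highest at 25.5, 24.5 and 25.2 FPKM, and Sting1, carried in the table as Tmem173, had 19.9, 18.7 and 22.6. Cgas, the cytosolic DNA sensor at the head of this pathway, had 0.336, 0.30 and 0.154 FPKM, from 32, 27 and 12 fragments. Its exact Poisson intervals, which cover counting error only, were 21.9 to 45.2, 17.8 to 39.3 and 6.20 to 20.96 fragments at 95%. Ifnb1, interferon beta, had no fragment.

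Genes of the tissue around a flank tumour were near or at 0. All 8 keratinocyte genes, Krt5 and Krt14 among them, had no fragment in any of the 3 libraries. Of 12 skeletal muscle genes 1 was detected, the myosin light chain gene Mylpf with 14, 17 and 15 fragments, and Myh4 and Myh1 had none. Of 10 adipocyte genes 2 were detected. Fabp4, a fatty acid-binding protein that endothelium and macrophages also express, had 10.6, 10.8 and 10.2 FPKM, and the adipokine gene Adipoq had 0, 0 and 2 fragments. Of 6 Schwann cell and nerve genes 1 was detected, and Sox10, a transcription factor of Schwann cells, had no fragment.

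The 3 libraries differed little at most genes and much at some. The median SD of log2(FPKM + 1) over the 14002 detected genes was 0.149. The same value was 0.156 for the cisplatin libraries, 0.173 for the combination and 0.210 for brivanib, each over the genes detected in that group. These group values were not tested against each other, and 1 brivanib library held 38.1% of its fragments in ribosomal RNA-like features. For 11484 genes with at least 100 fragments the median coefficient of variation was 9.71%, where counting error alone gives 3.41%. For 1212 genes (8.66%) the highest library was over 2-fold above the lowest.

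No single library accounted for most of the outlying genes. Vehicle 2 was over 2-fold above both other libraries at 56 genes and over 2-fold below both at 120. The same counts were 83 and 154 for vehicle 3 and 103 and 150 for vehicle 5. Across all detected genes vehicle 2 was highest at 35.5%, vehicle 3 at 28.6% and vehicle 5 at 35.9%, and they were lowest at 29.6%, 37.7% and 32.7%. The counts for the gene lists that follow are read against these shares, over the detected members of each list, and no test was made on them.

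T cell genes were highest in vehicle 2 at 9 of 11 and lowest in vehicle 5 at 9 of 11. Cd8a, the CD8 coreceptor chain, had 4.52, 2.31 and 0.233 FPKM, from 303, 126 and 14 fragments. The exact 95% Poisson intervals of its fragments were 269.8 to 339 in vehicle 2 and 7.65 to 23.5 in vehicle 5. Cd3e, of the T cell receptor complex, had 125, 56 and 9 fragments and Cd3d had 76, 29 and 0. Pdcd1, the PD-1 receptor, had 99, 59 and 4 fragments. Cd247 went the other way with 118, 483 and 500 fragments, and Foxp3, the regulatory T cell factor, had 26, 35 and 31. In FPKM, Gzmk and Gzmm had the same order of libraries as Cd3e and Cd3d, from only 23, 3 and 0 and 11, 6 and 3 fragments. Other granzymes did not follow it. Gzma was highest in vehicle 5, Gzmn was lowest in vehicle 2, and Gzmb, Prf1 and Gzmc to Gzmg were lowest in vehicle 3.

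MHC class I genes were highest in vehicle 2 at 8 of 9, and the list summed to 1830, 1626 and 1470 FPKM. Of the 10 detected cGAS-STING and interferon genes, 6 were highest in vehicle 2 and 8 lowest in vehicle 5. The chemokine gene Cxcl10, which interferon induces and which was picked after its values were seen, had 10.6, 7.27 and 6.51 FPKM. Macrophage genes were highest in vehicle 3 at 13 of 18, but the list's sum, in which Spp1 weighs most, was 1790, 1763 and 1695 FPKM. All 6 detected monocyte and neutrophil genes were highest in vehicle 5, and the whole list summed to 18.1, 26.5 and 44.3 FPKM. S100a8, a neutrophil calcium-binding protein, had 30, 56 and 91 fragments.

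Glycolysis and hypoxia genes were lowest in vehicle 2 at 17 of 20 and highest in vehicle 5 at 16 of 20, and their sum was 2851, 3335 and 3842 FPKM. Slc2a1, the glucose transporter GLUT1, had 48.3, 86.6 and 109 FPKM. Adm, the hypoxia-induced peptide adrenomedullin, had 6.13, 17.4 and 20.7 FPKM. Other hypoxia genes of the list departed from this order, Car9 being lowest in vehicle 5 and Vegfa in vehicle 3. Proliferation genes were highest in vehicle 5 at 19 of 22, with a sum of 1313, 1305 and 1546 FPKM. Fibroblast and matrix genes were lowest in vehicle 3 at 12 of 14, and summed to 1656, 1158 and 1349 FPKM.

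**Figure D3:**
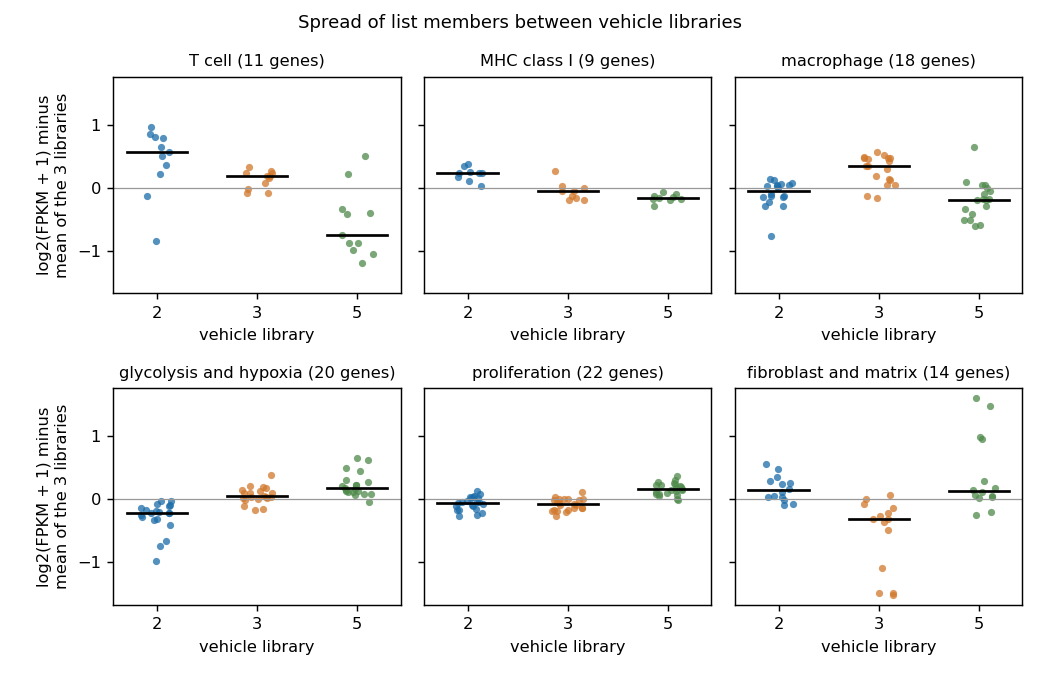
Each detected member of 6 lists in each vehicle library (x), as log2(FPKM + 1) minus its mean over the 3 libraries (y), with the list's median as a black line. T cell genes sit mostly above 0 in vehicle 2 and below 0 in vehicle 5. Glycolysis and hypoxia genes are mostly the reverse, and fibroblast genes mostly below 0 in vehicle 3.

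Among 7803 genes at a mean of 10 FPKM or more, the 15 with the largest SD of log2(FPKM + 1) were of different kinds. Of these 15, 4 carry provisional names and are only counted, and 1 more is not described. Of the 15, 8 stayed over 2-fold when the fragments of every overlapping gene were added. These 8 had few or no fragments in overlapping genes, so their range could hardly change. Col1a1 had 1171, 320 and 3406 fragments and Col1a2 1281, 284 and 3140, both lowest in vehicle 3 and highest in vehicle 5. Postn, the matrix protein periostin, had 29.8, 6.42 and 39.6 FPKM. These 3 matrix genes were over 6-fold apart, whereas Dcn of the same list had 138, 128 and 139 FPKM and Sparc, osteonectin, had 192, 212 and 206.

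Hspa1b, an inducible HSP70 chaperone, had 538, 2368 and 3730 fragments. Its near-identical neighbour Hspa1a, looked up afterwards, had 1.93, 10.6 and 17.1 FPKM in the same order of libraries. Fam107b had 48.4, 11.5 and 54.2 FPKM and was low in vehicle 3 alone. Sertad4 had 47.6, 25.8 and 9.05 FPKM.

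Another 4 genes of large SD fell below 2-fold once overlapping genes were added. Mir8114, a feature of 111 bases (chr1:153899926-153900036) inside the glutamine synthetase gene Glul, had 106, 1 and 136 fragments, but with Glul the range was 1.27-fold. Cd63-ps, a pseudogene inside Hsd17b4, had 21, 446 and 435 fragments and a range of 1.17-fold with its host. Rpgrip1 had 640, 12 and 559 fragments and a range of 1.22-fold with the overlapping Supt16. With overlapping genes the totals were 2920, 2237 and 2543 for Mir8114 and 2368, 2576 and 2227 for Cd63-ps. For Rpgrip1 they were 4755, 4025 and 4378. The overlapping genes held most of these fragments, so the sums could hardly pass 2-fold and say little about the features themselves. Nnt, a mitochondrial transhydrogenase listed under 2 gene IDs, had 28.8, 29.9 and 3.77 FPKM under the first and 0, 0 and 24.0 under the second, and their sum was 28.8, 29.9 and 27.8. Of the 100 most variable genes, 89 were over 2-fold as fragments and 62 with their overlapping genes. A gene without overlapping fragments keeps its range by construction, and a minor feature beside a larger gene mostly loses it.

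**Figure D4:**
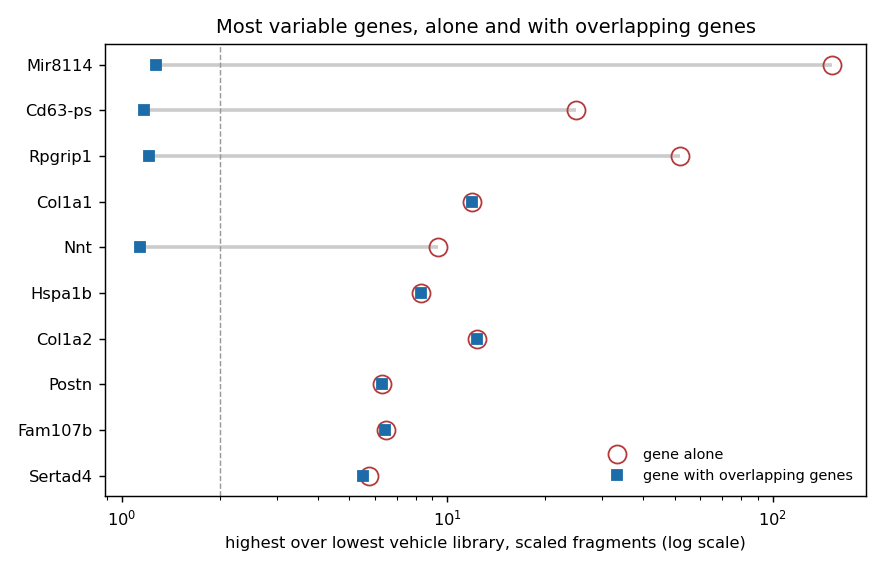
Highest over lowest vehicle library (x, log scale), in fragments scaled to equal totals, for 10 genes among the 15 of largest SD (rows). Circles are the gene alone, squares the gene with every overlapping gene, and the dashed line marks 2-fold. Col1a1, Col1a2, Postn, Hspa1b, Fam107b and Sertad4 have few or no fragments in overlapping genes, so they keep their range by construction. Mir8114, Cd63-ps, Rpgrip1 and Nnt fall below 2-fold with theirs.

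Some genes outside these 15 also varied in FPKM and were chosen after their values were seen. Hmox1, heme oxygenase 1, had 44.9, 128 and 194 FPKM, with vehicle 2 lowest as for the red cell genes. Emp1, an epithelial membrane protein, had 101, 302 and 119 FPKM and was high in vehicle 3 alone. Adnp had 33.6, 8.52 and 34.9 FPKM. Rpl17 had 559, 361 and 180.1 FPKM while its processed copy Rpl17-ps10 had 231, 469 and 611, and their sum was 804 ± 23.1. Gclm, a subunit of glutathione synthesis, had 10.0, 10.7 and 37.9 FPKM although its fragments were 1192, 1198 and 1239.

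**Figure D5:**
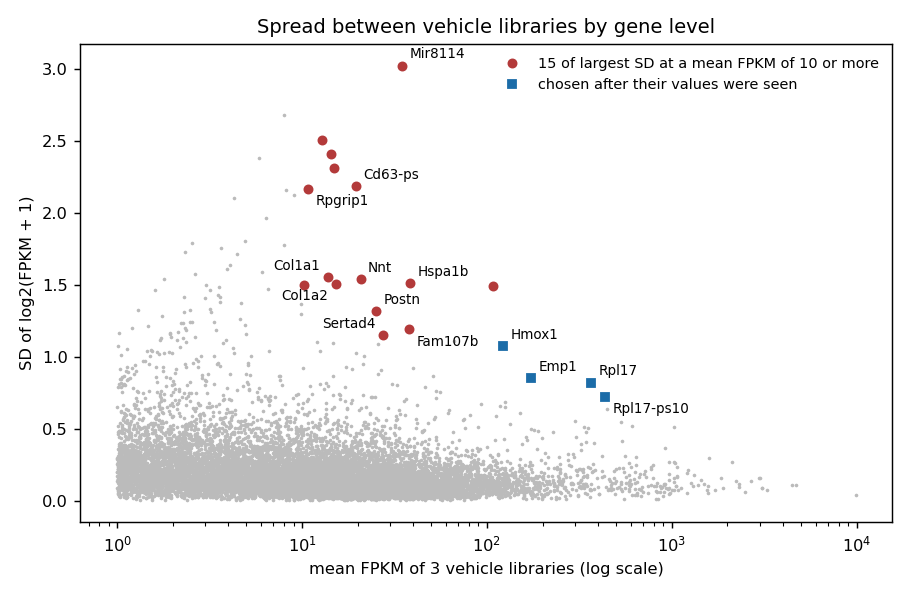
SD of log2(FPKM + 1) over the 3 vehicle libraries (y) against mean FPKM (x, log scale) for the 14002 detected genes. The median gene lies at an SD of 0.149, red circles mark the 15 of largest SD at a mean of 10 FPKM or more, and blue squares mark Hmox1, Emp1, Rpl17 and Rpl17-ps10.

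The 10 most even genes at this level were Tbc1d10a, Brpf1, Rbbp4, Ube3b, Zfp64, Marc2, Ccdc97, Reep6, Cpsf6 and Osbpl9. Tbc1d10a, a RAB GTPase-activating protein, had 16.9, 16.8 and 16.8 FPKM. Rbbp4, a histone-binding chromatin subunit, had 63.2, 63.6 and 63.4 FPKM, and Cpsf6, a cleavage and polyadenylation factor, 34.2, 33.9 and 34.1. As fragments scaled to equal totals these 3 genes ranged over 1.07-fold, 1.04-fold and 1.02-fold. They were ranked first among 7803 genes on 3 values each, so their evenness is given as a description.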

How the data were processed

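Total RNA, isolated by Trizol or RNeasy columns per the labels' protocols, was sequenced on a BGISEQ-500 per the design text. The authors aligned with Bowtie2 (2.2.5) and estimated FPKM per transcript with RSEM (1.2.12), per the design text and the submitters' processing notes. HISAT, Bowtie and a build mm9 also stand in the notes, while mm10 stands in the design text. Coordinates here are those of GRCm38 (mm10). The deposited FPKM table held 135276 mouse transcripts and 3 broken lines, which were dropped, and 1 per-sample column that matched no label was not used. FPKM was summed to 53801 genes, of which 53620 matched a symbol. Values up to 100 fragments were whole multiples (100%, within 0.01) of the value of 1 fragment, so fragments were recovered from them. Transcripts came from GENCODE M21. Summaries used Python 3.11.15, pandas 2.3.3, numpy 2.4.6 and scipy 1.17.1. Spread was taken as the SD of log2(FPKM + 1). Intervals are exact Poisson intervals and cover counting error only. No groups were compared and no test was made.

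The genes named are the 20 highest protein-coding genes and the 8 highest of other biotypes, the highest and lowest members and defining markers of each list, and, at a mean of 10 FPKM or more, the 10 least variable genes and 10 of the 15 most variable, the others being counted only. Genes added once values were known are marked so. The members, lists and rules were chosen with earlier results of these data known. One red cell gene, Ahsp, was not found in the table. The values of a few listed genes are not reported here.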

Additional observations from a re-analysis of the deposited data

How the results depend on the processing

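The number of detected genes, 14002, and of detected list members, 229, moved by less than the spread or under 1.5-fold under the alternatives run. Both depend on the cut-off. At thresholds of 0.5 and 5 FPKM the detected genes were 16015 and 10130, and the list members 245 and 175. As recovered fragments, the protein-coding share was 94.9%, that of the 10 highest genes 4.80% and that of the 100 highest 15.8%. Without ribosomal RNA-like and mitochondrial features these shares were 86.3%, 6.27% and 24.1%. The median SD was 0.166 with a pseudocount of 0.1, 0.131 at a mean FPKM of 5 or more and 0.131 with no filter. Leaving out each library in turn gave a median SD of 0.117 to 0.126 and 557 to 707 genes over 2-fold, since 2 libraries span less than 3. At a mean FPKM of 5 or more, 283 genes were over 2-fold. With recovered fragments, an alternative chosen after seeing the data, the median SD was 0.160. Of 186 list medians under the alternatives 9 moved by more than the spread between libraries, in the pericyte, skeletal muscle and adipocyte lists. Of 301 gene levels 4 moved, all with the most abundant transcript in place of the sum (Eef1a1, Rplp0, Rpl4 and Rpl19). No paired analysis was possible because a single group was described and no result came from a test. Depth limits the values of genes with few fragments, among them several T cell genes, Cgas and the lung, muscle, adipocyte, keratinocyte and epithelial genes.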
